A study of Mus musculus with 29 samples.

Results

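The cyclin-dependent kinase inhibitors measured here were Cdkn1a, Cdkn1b, Cdkn1c, Cdkn2a, Cdkn2b, Cdkn2c and Cdkn2d, 7 of the 12394 genes and 9 of the 22690 probe sets of a mouse expression array. A probe set, a group of short probes read as 1 value, was a member when its annotation named exactly 1 of these symbols. Cdkn1a and Cdkn1b had 2 sets each and the remaining genes 1 each. Where a gene had 2, the brighter set over the arrays of a tissue stands for the gene, and it was the same set in both tissues.

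Cyclin-dependent kinases drive cells through the division cycle once a cyclin binds them, and these inhibitors hold them back. The Cip/Kip proteins p21 (Cdkn1a), p27 (Cdkn1b) and p57 (Cdkn1c) bind complexes of several cyclins and kinases. The INK4 proteins (Cdkn2a to Cdkn2d) bind Cdk4 and Cdk6 before a D-type cyclin can. In blood tissue p27 is abundant in resting lymphocytes, p21 is a classical target of p53 after DNA damage, p57 is linked to resting stem cells, and products of Cdkn2a accumulate in senescent cells.

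Gene expression was measured in total RNA of unsorted marrow and spleen cells of MLL-ENL-ERtm mice and wild-type mice, 29 arrays in all. The oncogene MLL-ENL arises by fusion of MLL and ENL in acute leukaemias, and in these mice the attached ERtm domain, derived from the oestrogen receptor, switches it on when tamoxifen is given. All mice, the wild-type ones included, ate chow with 300 mg/kg tamoxifen, so no group shows the fusion without the drug. Of the 15 marrow arrays, 11 held MLL-ENL-ERtm samples: 4 of the proliferation state after 7 months on tamoxifen, 4 of the transition state after 7 to 8 months and 3 of the senescence state after 8 months. The 4 wild-type marrows had 7 to 8 months. The 14 spleen arrays came from 3 MLL-ENL-ERtm samples at the early stage (7 months), 3 in progression (9 to 10 months), 3 at the terminal stage (19 to 23 months) and 5 wild-type samples (8 to 24 months). The labels call the proliferation state high in division and low in DNA damage response (DDR) signalling, transition lower in division and high in DDR, progression partly senescent, and the terminal stage free of senescence. Of the wild-type spleens only 1, replicate 1 with 24 months, was as old in treatment as the terminal spleens. Sex, strain, age at the start and the promoter of the construct are not given in the sources used here. Nothing states whether marrow and spleen samples share mice, and the p-values measure the spread between arrays that the labels call biological replicates.

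Levels are the log2 values the authors deposited, on which a difference of 1 is a doubling. The median of an array was 8.11 to 8.29 in marrow but 6.73 to 6.90 in spleen, and the tissues were kept apart. The lower quartile of an array was 6.13 to 6.32 in marrow and 4.56 to 4.81 in spleen. Probe sets differ in brightness for the same amount of RNA, so levels were not compared between genes. Markers of pancreas acinar cells, taken as the mean of 9 genes, stood at 8.36 in early spleen 1, at 12.33 in wild-type spleen 3 and at 7.81 in wild-type spleen 5, against 5.38 to 5.86 in the other spleens. Markers of fat and muscle (10 genes) stood at 10.93 in proliferation marrow 1, against 7.36 to 8.23 in the other marrows. Xist, an RNA of female cells, was high in 1 of 3 early spleens, 0 of 3 progression spleens, 3 of 3 terminal spleens and 2 of 5 wild-type spleens. Among the marrows it was high in all 8 of the proliferation and transition states, 1 of 3 senescence samples and 2 of 4 wild-type samples.

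The defining markers of each tissue were present. Neutrophil markers averaged 14.15 to 14.64 over the marrow arrays. In spleen, markers of several cell types differed with the fusion: B cell markers stood at 7.59 to 8.82 in early, 7.09 to 8.61 in progression and 5.83 to 7.16 in terminal spleens, and at 9.55 to 9.94 in wild type. T cell markers were 6.92 to 7.92 in all 9 fusion spleens, against 8.95 to 9.36 in wild type. Plasma cell markers were 7.60 to 8.92 in the fusion spleens and 9.20 to 9.70 in wild type. Neutrophil markers were 12.24 to 13.32 in the fusion spleens and 11.08 to 11.71 in wild type, and progenitor markers 9.99 to 10.59 in the fusion spleens and 7.80 to 8.71 in wild type. Erythroid markers stood at 11.01 to 11.21 in early, 10.63 to 11.03 in progression and 9.09 to 9.40 in terminal spleens, and at 10.82 to 11.10 in wild type. Of 8 erythroid genes 7 fell in terminal spleen against wild type and 6 against progression. Over all genes 16.3% and 3.3% were lower at an adjusted p under 0.05 by limma in these comparisons. Megakaryocyte markers stood at 7.43 to 9.37 in early, 8.63 to 10.36 in progression and 7.03 to 7.80 in terminal spleens, and at 8.42 to 9.36 in wild type. In marrow, B cell markers were 7.44 to 8.56 in all 11 fusion arrays, against 8.82 to 9.86 in wild type. The part of these shifts in the differences of the inhibitors was not tested. In a tissue sample fewer cells of a type and less RNA per cell cannot be told apart.

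In terminal spleen the 3 Cip/Kip genes all stood apart from wild type, in opposite directions: Cdkn1a and Cdkn1c were higher and Cdkn1b, by its brighter set, was lower. They were the 3 of 7 members that passed the test (limma, adjusted p under 0.05 over all genes). Of all 12394 genes 34.5% passed in the same comparison, so 3 of 7 is near the share of genes at large. The median size of the difference was 0.41 over the 7 members and 0.26 over all genes.

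Cdkn1a had levels of 8.66, 8.57 and 8.70 in terminal spleen, and 7.88, 7.15, 7.05, 7.18 and 7.23 in wild type. All 3 terminal arrays lay above all 5 wild-type arrays, and the terminal arrays lay close together. The difference was 1.34 ± 0.28 (SE, n = 3 and 5), a 2.54-fold rise with adjusted p = 0.0018 by limma. The highest wild-type level was that of replicate 1, the spleen with 24 months of tamoxifen. In progression Cdkn1a stood at 9.26, 7.96 and 7.78, higher than wild type by 1.03 ± 0.28 (adjusted p = 0.018), but progression and wild-type spleens overlapped. Without progression 1 the difference was 0.57 ± 0.20 and did not pass (adjusted p = 0.075). The early levels of 7.60, 7.76 and 8.02 were 0.50 ± 0.28 above wild type, which did not pass (adjusted p = 0.26). In order of mean level the groups ran terminal (8.64 ± 0.07, SD), progression (8.33 ± 0.81), early (7.79 ± 0.21) and wild type (7.30 ± 0.33). The arrays of each neighbouring pair in that order overlapped, and no such pair passed the test. The second, slightly dimmer Cdkn1a set moved the same way, by 1.06 ± 0.29 in terminal (adjusted p = 0.012 over all probe sets) and by 1.14 ± 0.29 in progression (adjusted p = 0.017).

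Cdkn1b had levels of 9.90, 9.98 and 9.81 in terminal spleen, and 10.45, 11.33, 11.53, 11.43 and 11.40 in wild type. The terminal arrays lay below every other spleen array. The difference from wild type was -1.33 ± 0.22 (adjusted p = 0.00035), so the wild-type level was 2.51 times the terminal one. Early spleens stood at 10.40, 10.78 and 11.13 and progression spleens at 10.76, 10.57 and 10.85, with differences from wild type of -0.46 ± 0.22 (adjusted p = 0.19) and -0.50 ± 0.22 (adjusted p = 0.13), which did not pass. Wild-type spleen 1, the one with 24 months of tamoxifen, again stood nearest to the fusion spleens. With 1 wild-type array of that duration, the part of age in the terminal differences was not tested. Without that array both the early and the progression difference passed, at -0.66 ± 0.15 in early (adjusted p = 0.0093) and -0.70 ± 0.15 in progression (adjusted p = 0.0059). Terminal minus early was -0.87 ± 0.25 (adjusted p = 0.051) and terminal minus progression -0.83 ± 0.25 (adjusted p = 0.062), with no overlap of the groups but short of the threshold. Without early 1 the first passed, at -1.05 ± 0.26 (adjusted p = 0.0497). From lowest to highest the means ran terminal (9.90 ± 0.09), progression (10.73 ± 0.14), early (10.77 ± 0.37) and wild type (11.23 ± 0.44). Early overlapped both progression and wild type in that order.

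The fall of Cdkn1b rests on 1 of its 2 probe sets. The dimmer set read 8.09, 8.04 and 7.40 in terminal spleen, and 7.93, 6.81, 6.58, 6.12 and 6.30 in wild type. That set was 1.10 ± 0.45 higher in terminal spleen, which did not pass (adjusted p = 0.077 over all probe sets). With the mean of both sets as the gene, the terminal difference was -0.11 ± 0.18 (adjusted p = 0.68). Which transcripts each set detects is not given in the sources used here, and the reason for the disagreement was not tested.

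**Figure D1:**
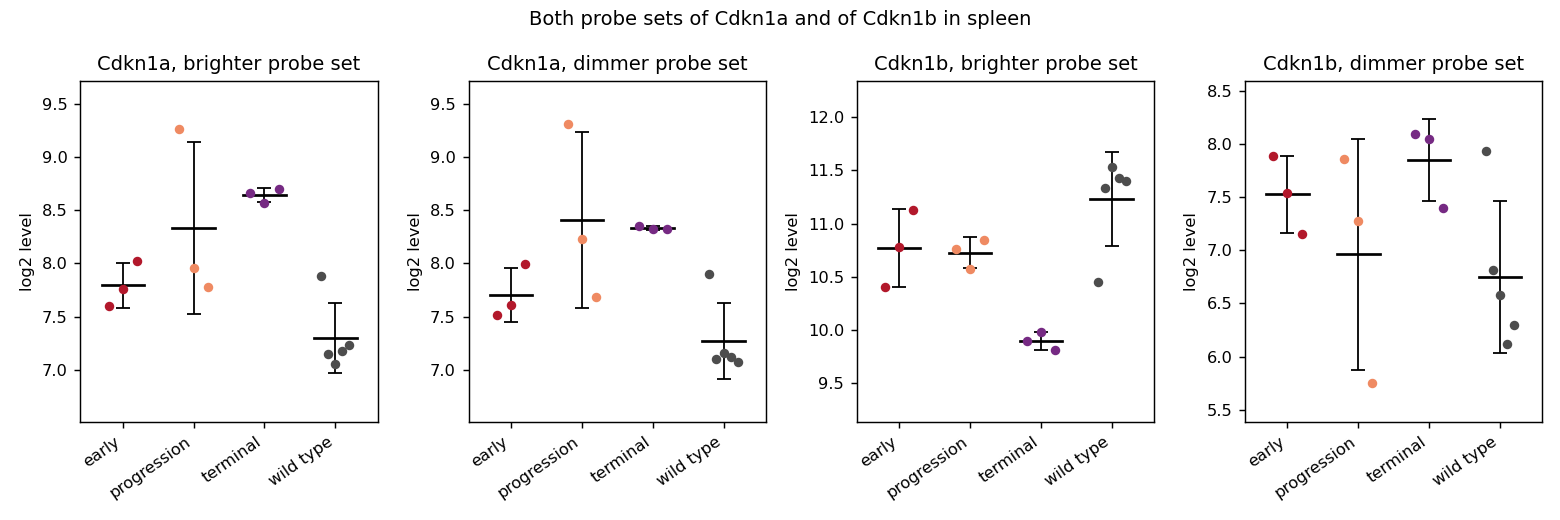
Log2 levels of both probe sets of Cdkn1a and Cdkn1b in the 14 spleen arrays (points), by stage, with group means (lines) and ± 1 SD (bars). All panels span the same range of log2 units. The Cdkn1a sets rise together in terminal spleen, at 8.57 to 8.70 and 8.32 to 8.35. The brighter Cdkn1b set is lowest in terminal spleen, at 9.81 to 9.98, while the dimmer set reads 7.40 to 8.09 there.

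The bases around the annotated transcription starts of these genes are given because the brighter sets of Cdkn1a and Cdkn1b moved in opposite directions. They are RefSeq windows (build GRCm38.p6) of 300 bases, from 250 before a start, read 5′ to 3′ along the gene's strand. Capitals mark GC boxes, GGGCGG or its complement CCGCCC, the element that Sp1 family factors bind. Cdkn1a has 2 annotated starts, at chr17:29090729-29091028 and chr17:29093519-29093818, both on the plus strand, and Cdkn1b 1, at chr6:134920151-134920450 on the plus strand.
Cdkn1a, upstream start: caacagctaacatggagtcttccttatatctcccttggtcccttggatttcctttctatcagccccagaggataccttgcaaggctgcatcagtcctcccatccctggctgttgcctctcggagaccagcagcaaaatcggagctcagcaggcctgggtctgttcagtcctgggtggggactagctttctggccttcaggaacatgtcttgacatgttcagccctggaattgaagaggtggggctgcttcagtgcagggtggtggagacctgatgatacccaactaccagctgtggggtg
Cdkn1a, downstream start: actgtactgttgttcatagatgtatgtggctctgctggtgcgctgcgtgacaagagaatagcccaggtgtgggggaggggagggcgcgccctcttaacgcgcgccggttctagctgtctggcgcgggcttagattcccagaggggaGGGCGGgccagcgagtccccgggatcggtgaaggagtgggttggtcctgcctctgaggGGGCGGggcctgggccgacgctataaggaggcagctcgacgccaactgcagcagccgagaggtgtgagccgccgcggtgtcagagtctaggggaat
Cdkn1b: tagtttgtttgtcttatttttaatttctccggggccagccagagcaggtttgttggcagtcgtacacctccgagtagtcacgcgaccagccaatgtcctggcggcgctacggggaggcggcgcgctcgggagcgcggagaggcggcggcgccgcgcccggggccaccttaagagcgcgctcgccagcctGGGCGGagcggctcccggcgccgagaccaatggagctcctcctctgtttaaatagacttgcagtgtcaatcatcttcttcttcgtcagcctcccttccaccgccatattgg
The upstream Cdkn1a window held 0 GC boxes and 2 CpG dinucleotides, the downstream one 2 and 23, and the Cdkn1b window 1 and 30. A GC box lay in 35.7% of the 32851 windows of the RefSeq table, whose median number of CpG dinucleotides was 7. The Cdkn1b window also held 3 CCAAT motifs (CCAAT or ATTGG), found in 37.4% of all windows. These counts describe letters only, and the arrays do not say which start was used.

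Cdkn1c had levels of 7.10, 7.25 and 6.64 in terminal spleen, and 5.99, 5.69, 5.82, 5.79 and 6.14 in wild type. All terminal arrays lay above all wild-type arrays, by 1.11 ± 0.21 (adjusted p = 0.00089). No fold is given because the wild-type levels lie below the array medians. In the early spleens Cdkn1c stood at 6.99, 6.09 and 6.50, which was 0.64 ± 0.21 above wild type and just missed the threshold (adjusted p = 0.051). Without early 2 it passed, at 0.86 ± 0.21 (adjusted p = 0.017). Progression spleens, at 5.86, 6.52 and 6.08, were 0.27 ± 0.21 above wild type (adjusted p = 0.39). Groups ran terminal (7.00 ± 0.32), early (6.53 ± 0.45), progression (6.16 ± 0.34) and wild type (5.89 ± 0.18). The arrays of each neighbouring pair in that order overlapped, and no such pair passed the test. Stroma and endothelium markers, of cells that can carry p57, stood at 5.01 to 5.22 in terminal spleen and 6.51 to 6.83 in wild type, and their part in the Cdkn1c levels was not tested.

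Terminal and progression spleens were compared to see which inhibitors differed between the stage labelled free of senescence and the one labelled partly senescent. Cdkn1c was the 1 member of 7 that passed, higher in terminal spleen by 0.84 ± 0.23 (adjusted p = 0.049), where 5.86% of all genes passed. The call was lost in 4 of 6 fits that each left out an array, at 0.69 ± 0.25 without progression 1 (adjusted p = 0.16), 0.80 ± 0.27 without progression 3 (0.059), 0.79 ± 0.27 without terminal 1 (0.11) and 0.71 ± 0.26 without terminal 2 (0.15). Xist was high in every terminal and in no progression spleen, and with its level in the model the difference was 0.49 ± 0.25 (adjusted p = 0.31). The progression spleens had 9 to 10 months of tamoxifen and the terminal spleens 19 to 23. Sex, time on tamoxifen and stage cannot be told apart between these 2 groups. Erythroid and megakaryocyte markers were lower in every terminal than in every progression spleen. So were stroma and endothelium markers, at 5.01 to 5.22 in terminal and 5.98 to 6.60 in progression. Neutrophil markers were higher in every terminal spleen, at 13.04 to 13.32 against 12.24 to 12.86. T cell markers overlapped, and the part of all these markers was not tested. Against the early stage no member passed in terminal spleen by limma, where 6.61% of all genes passed. At an unadjusted p under 0.05 were 3 of 7 members there, and 3041 of 12394 genes. No member passed between progression and early, where 0% of genes did by limma, with 910 of 12394 at an unadjusted p under 0.05. With array weights 328 genes passed there, none of them an inhibitor.

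**Figure D2:**
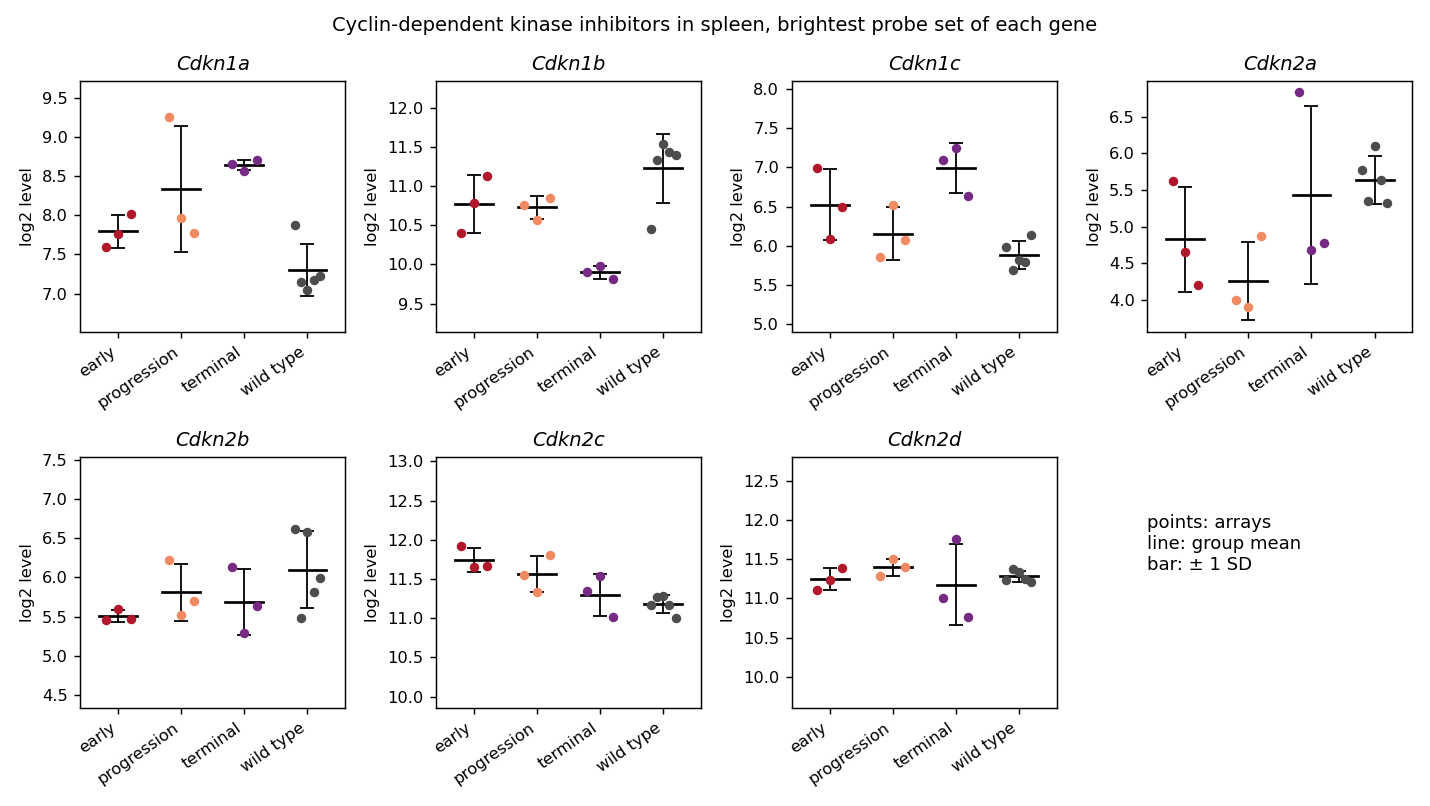
Log2 levels of the 7 inhibitors in the 14 spleen arrays (points, brightest probe set of each gene), by stage, with group means (lines) and ± 1 SD (bars). In terminal spleen the points of Cdkn1a (8.57 to 8.70) and Cdkn1c (6.64 to 7.25) lie above all wild-type points and those of Cdkn1b (9.81 to 9.98) below them. For Cdkn2c the early points (11.65 to 11.92) lie above all wild-type points.

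Among the INK4 genes of the spleen, Cdkn2c, whose product p18 restrains stem cells and lymphocytes, was higher early in disease. Its levels were 11.92, 11.65 and 11.66 in early spleen, and 11.17, 11.27, 11.28, 11.17 and 11.00 in wild type. The groups did not overlap, and the difference was 0.57 ± 0.14 (1.48-fold, adjusted p = 0.012). It was the 1 of 7 members called in early spleen, where 15.9% of all genes passed. Without early 1, one of the spleens with pancreas signal, the difference was 0.48 ± 0.16 and did not pass (adjusted p = 0.074). In progression Cdkn2c stood at 11.55, 11.34 and 11.80, again above every wild-type array, by 0.39 ± 0.14, short of the threshold (adjusted p = 0.067). Terminal spleens, at 11.35, 11.54 and 11.01, lay below all early spleens (terminal minus early -0.45 ± 0.16, adjusted p = 0.097) and 0.12 ± 0.14 from wild type (adjusted p = 0.56). Groups ran early (11.74 ± 0.15), progression (11.56 ± 0.23), terminal (11.30 ± 0.27) and wild type (11.18 ± 0.11), and no 2 neighbours in that order differed beyond their spread.

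Cdkn2a, the gene of p16Ink4a and p19Arf, was dim in every spleen. It read 5.62, 4.65 and 4.21 in early, 4.00, 3.90 and 4.87 in progression and 6.83, 4.68 and 4.78 in terminal spleen, and 5.77, 5.35, 6.10, 5.64 and 5.32 in wild type. The progression arrays lay below all wild-type arrays, by 1.38 ± 0.45 (adjusted p = 0.045). With Cdkn1a it made 2 of 7 members called in progression, where 19.3% of all genes passed. All 14 levels lay below the median of their own array, so no fold is given, and 7 of the 8 fits that left out an array lost the call, with differences from -1.20 to -1.46 and adjusted p-values from 0.060 to 0.19. Those arrays were progression 1 and 2 and each of the 5 wild-type spleens. Terminal 1, at 6.83, was the highest spleen array for Cdkn2a, while terminal 2 and 3 read below all wild-type arrays. The terminal mean was 0.21 ± 0.45 below wild type (adjusted p = 0.77), and without terminal 1 it was 0.91 below.

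Cdkn2a has 2 annotated starts that give different proteins, the upstream one p19Arf and the downstream one p16Ink4a. The array has 1 probe set for the gene, and which of the transcripts it reads is not given in the sources used here, so its level was assigned to neither. Their windows on the minus strand, chr4:89294570-89294869 and chr4:89282143-89282442, are shown because both products are used to score senescence.
Cdkn2a, upstream start: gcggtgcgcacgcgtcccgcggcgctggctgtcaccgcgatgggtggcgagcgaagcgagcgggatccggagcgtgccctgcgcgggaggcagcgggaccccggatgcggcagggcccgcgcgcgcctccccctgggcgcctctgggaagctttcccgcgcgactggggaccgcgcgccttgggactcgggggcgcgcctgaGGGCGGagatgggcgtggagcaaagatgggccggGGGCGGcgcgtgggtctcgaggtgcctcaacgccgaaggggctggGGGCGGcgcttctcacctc
Cdkn2a, downstream start: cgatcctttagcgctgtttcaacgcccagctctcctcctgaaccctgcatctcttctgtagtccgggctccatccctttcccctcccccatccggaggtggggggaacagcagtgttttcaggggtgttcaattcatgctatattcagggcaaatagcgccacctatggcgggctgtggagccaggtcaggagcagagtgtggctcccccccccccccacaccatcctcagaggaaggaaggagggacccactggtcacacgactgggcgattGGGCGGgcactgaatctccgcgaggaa
GC boxes, again in capitals, numbered 3 in the upstream and 1 in the downstream window, and CpG dinucleotides 45 and 12.

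Cdkn2b, whose product p15 is induced by TGF-beta and which lies beside Cdkn2a in the genome, passed in no spleen comparison. It ranged from 5.46 to 5.60 in early, 5.52 to 6.22 in progression, 5.29 to 6.13 in terminal and 5.48 to 6.62 in wild-type spleen. The early difference of -0.59 ± 0.26 was the largest of its stage differences from wild type (adjusted p = 0.15). Cdkn2d, the gene of p19Ink4d, passed in none either, with levels from 11.11 to 11.39 in early, 11.29 to 11.50 in progression, 10.76 to 11.76 in terminal and 11.21 to 11.38 in wild-type spleen. Its stage differences lay between -0.11 and 0.11 with 95% intervals from -0.48 to 0.48. The terminal spread came from terminal 2, at 11.76, without which Cdkn2d was 0.40 ± 0.12 below wild type and passed (adjusted p = 0.024).

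Averaged over the 3 fusion stages, 4 of 7 members differed from wild-type spleen, where 32.5% of all genes passed. Cdkn1a was higher by 0.96 ± 0.21, Cdkn1c by 0.67 ± 0.16 and Cdkn2c by 0.36 ± 0.11, and Cdkn1b was lower by 0.76 ± 0.17. With the mean of both Cdkn1b sets its difference was -0.03 ± 0.14 (adjusted p = 0.87), and the dimmer set alone gave 0.70 ± 0.34 (adjusted p = 0.14 over all probe sets). The Cdkn2c call was lost without wild-type spleen 5 (0.31 ± 0.11, adjusted p = 0.062). Without the 3 spleens with pancreas signal, a choice made after seeing the data, Cdkn1c was the member still called. In that fit terminal against wild type kept 3 of 7 calls, and early and progression kept none. It held fewer wild-type and early arrays, and the share of all genes that passed in it is not given here. Cdkn2c in early was then 0.45 ± 0.18, against 0.57 ± 0.14 with all arrays. In progression Cdkn1a was 0.93 ± 0.34, against 1.03 ± 0.28, and Cdkn2a -1.33 ± 0.49, against -1.38 ± 0.45.

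In marrow no inhibitor passed in any comparison. The counts were 0 of 7 in proliferation, transition and senescence against wild type, where 0.282%, 0.42% and 0.0484% of all genes passed by limma. At an unadjusted p under 0.05 the members numbered 4, 3 and 0, and the genes at large 1227, 1296 and 788. With the 3 states averaged 0 of 7 passed, against 0.662% of all genes. Between the states 0% of genes passed in each of the 3 comparisons, with 266 at an unadjusted p under 0.05 in transition against proliferation, 380 in senescence against transition and 125 in senescence against proliferation. With array weights 1 member, Cdkn2d, passed in proliferation and in transition, where 1221 and 1979 of all 12394 genes passed in that fit. In the mean of the states 2 members, Cdkn1a and Cdkn1c, passed with array weights. The share of all genes that passed in that weighted fit is not given here. Array weights raised the calls over all genes from 35 to 1221 in proliferation and from 52 to 1979 in transition. The median differences of the 7 members from wild type were 0.31, 0.30 and 0.09 in proliferation, transition and senescence, against 0.01, 0.04 and 0.00 over all genes. Without regard to sign, the median sizes were 0.31, 0.37 and 0.09 over the members, against 0.14 over all genes in each state.

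**Figure D3:**
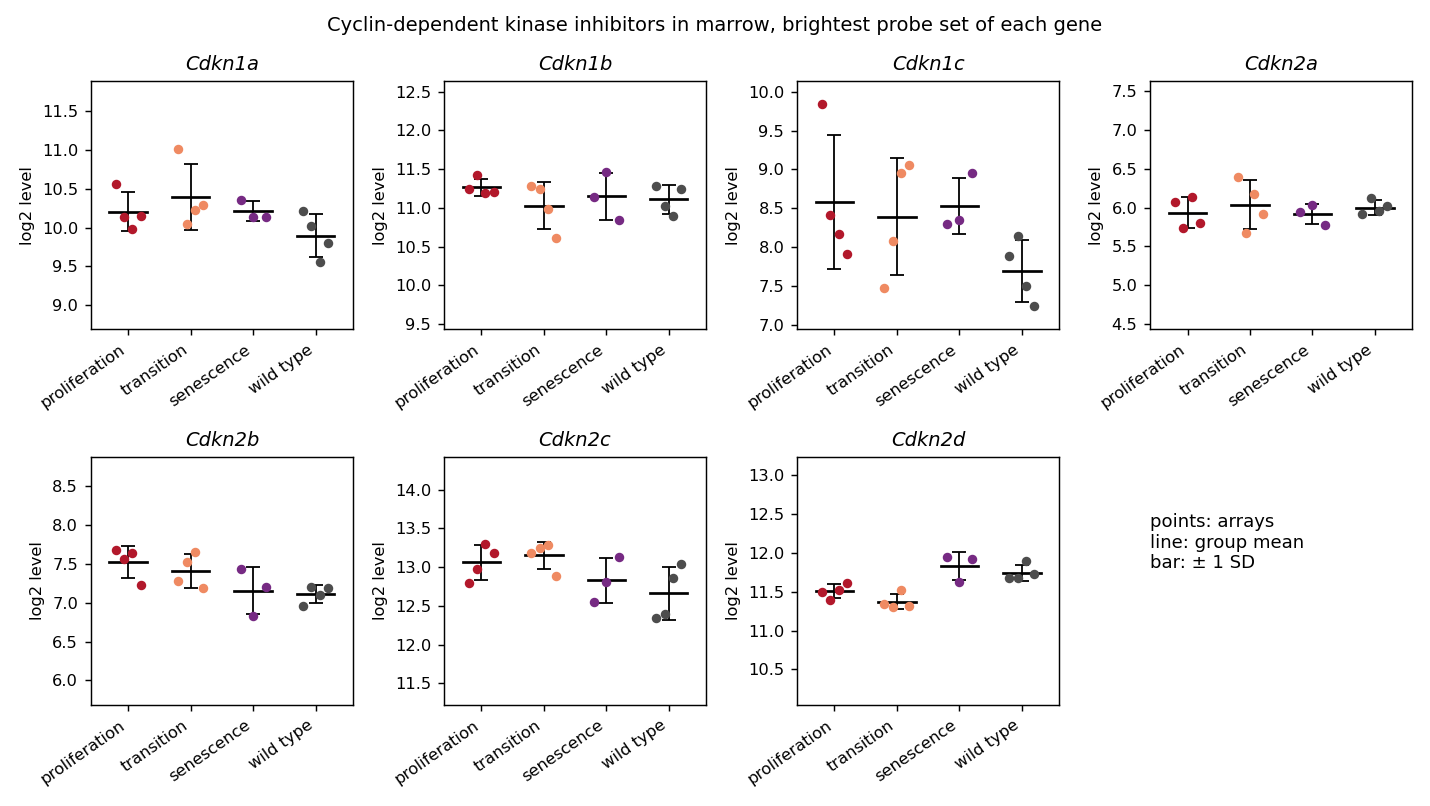
Log2 levels of the 7 inhibitors in the 15 marrow arrays (points, brightest probe set of each gene), by state, with group means (lines) and ± 1 SD (bars). Cdkn2d lies at 11.31 to 11.52 in transition and 11.63 to 11.95 in senescence, with wild type at 11.68 to 11.90. For Cdkn1a, Cdkn1b, Cdkn2a and Cdkn2c every state overlaps wild type.

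Cdkn2d had the smallest unadjusted p of the 7 in transition against wild type and in both comparisons of senescence with another state. It stood at 11.50, 11.39, 11.53 and 11.61 in proliferation, 11.34, 11.31, 11.52 and 11.32 in transition and 11.95, 11.63 and 11.92 in senescence, and at 11.68, 11.68, 11.90 and 11.73 in wild type. Proliferation and transition lay below all wild-type arrays, and senescence lay above both of these states and overlapped wild type. Transition minus wild type was -0.37 ± 0.11 (adjusted p = 0.21) and proliferation minus wild type -0.24 ± 0.11 (adjusted p = 0.46). Senescence minus transition was 0.46 ± 0.12, 10th of 12394 genes by p (unadjusted p = 0.0013, adjusted p = 1). Array weights gave -0.45 ± 0.10 in transition (adjusted p = 0.0093) and -0.31 ± 0.09 in proliferation (adjusted p = 0.047). In these weighted fits 1979 and 1221 of 12394 genes passed. The means ran senescence (11.83 ± 0.17), wild type (11.75 ± 0.10), proliferation (11.50 ± 0.09) and transition (11.37 ± 0.10), with senescence overlapping wild type and proliferation overlapping transition.

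Cdkn2b stood at 7.68, 7.57, 7.64 and 7.23 in proliferation, 7.28, 7.52, 7.66 and 7.19 in transition and 7.43, 6.83 and 7.21 in senescence, and at 6.96, 7.20, 7.10 and 7.19 in wild type. All proliferation arrays lay above all wild-type arrays, by 0.42 ± 0.15 (adjusted p = 0.34), while transition and senescence overlapped wild type. Every marrow level of Cdkn2b lay below the median of its array. Cdkn2c stood at 12.79 to 13.30 in proliferation, 12.89 to 13.28 in transition and 12.55 to 13.13 in senescence, against 12.35 to 13.04 in wild type. Its differences from wild type were 0.40 ± 0.18, 0.49 ± 0.18 and 0.17 ± 0.20, none past the threshold (adjusted p = 0.49, 0.35 and 0.92).

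Cdkn2a stayed at 5.67 to 6.39 in all 15 marrow arrays, below or about the lower quartile of the arrays. Its senescence levels were 5.94, 6.03 and 5.78, against 5.91, 6.12, 5.95 and 6.02 in wild type, a difference of -0.08 ± 0.16 with a 95% interval from -0.43 to 0.26. Proliferation spanned 5.73 to 6.13 and transition 5.67 to 6.39. No difference of Cdkn2a was detectable at this brightness in the marrow labelled senescent, which does not show that the gene was silent or unchanged.

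Cdkn1a, the p53 target, stood at 10.56, 10.14, 9.98 and 10.15 in proliferation, 11.02, 10.05, 10.23 and 10.29 in transition and 10.36, 10.14 and 10.14 in senescence, and at 10.21, 10.02, 9.56 and 9.80 in wild type. Each state overlapped wild type. The differences were 0.31 ± 0.20, 0.50 ± 0.20 and 0.32 ± 0.22 (adjusted p = 0.67, 0.41 and 0.88). Without transition 1, the highest array, the transition difference was 0.29, and without proliferation 1, the array with fat and muscle signal, the proliferation difference was 0.19. The dimmer Cdkn1a set gave smaller differences from wild type, at 0.13 ± 0.17, 0.32 ± 0.17 and 0.16 ± 0.18 in proliferation, transition and senescence, and none passed. Pmaip1, another p53 target, was called in transition at 1.66 ± 0.31 (adjusted p = 0.031), the 1 of 23 measured genes of the p53 target list to pass there.

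Cdkn1c varied most between the arrays of a marrow group. It stood at 9.84, 8.41, 8.17 and 7.91 in proliferation, 7.47, 8.08, 8.96 and 9.06 in transition and 8.30, 8.35 and 8.95 in senescence, and at 7.89, 8.14, 7.50 and 7.24 in wild type. Senescence lay above every wild-type array, at 0.84 ± 0.44 (adjusted p = 0.83), and proliferation was 0.89 ± 0.41 above (adjusted p = 0.49) with overlap. The highest array, proliferation 1, was the one with fat and muscle signal, and without it the proliferation difference was 0.47. Stroma and endothelium markers stood at 10.45, 9.28, 7.87 and 8.13 in proliferation and at 7.65, 7.96, 8.75 and 9.63 in transition, where the arrays with the highest Cdkn1c, proliferation 1 and transition 4, had the highest marker levels of their groups. In senescence they stood at 9.34, 9.69 and 8.62, and there the array with the highest Cdkn1c had the lowest marker level. In wild type they stood at 8.77, 9.91, 7.49 and 8.07. Their part in the Cdkn1c levels was not tested.

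Cdkn1b overlapped wild type in every marrow state, at 11.19 to 11.43 in proliferation, 10.61 to 11.28 in transition and 10.85 to 11.46 in senescence, and at 10.89 to 11.28 in wild type. Its differences from wild type were 0.16 ± 0.17, -0.08 ± 0.17 and 0.04 ± 0.18 (adjusted p = 0.82, 0.92 and 0.98). The 95% intervals ran from -0.43 to 0.52, which leaves out a fall as large as the 1.33 of the same set in terminal spleen. The times differ, with 7 to 8 months of tamoxifen in the marrows and 19 to 23 in the terminal spleens. In early spleen, at 7 months, the difference was -0.46 ± 0.22. The dimmer Cdkn1b set gave -0.22 ± 0.27, -0.15 ± 0.27 and 0.13 ± 0.29 in the marrow states, and none passed.

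**Figure D4:**
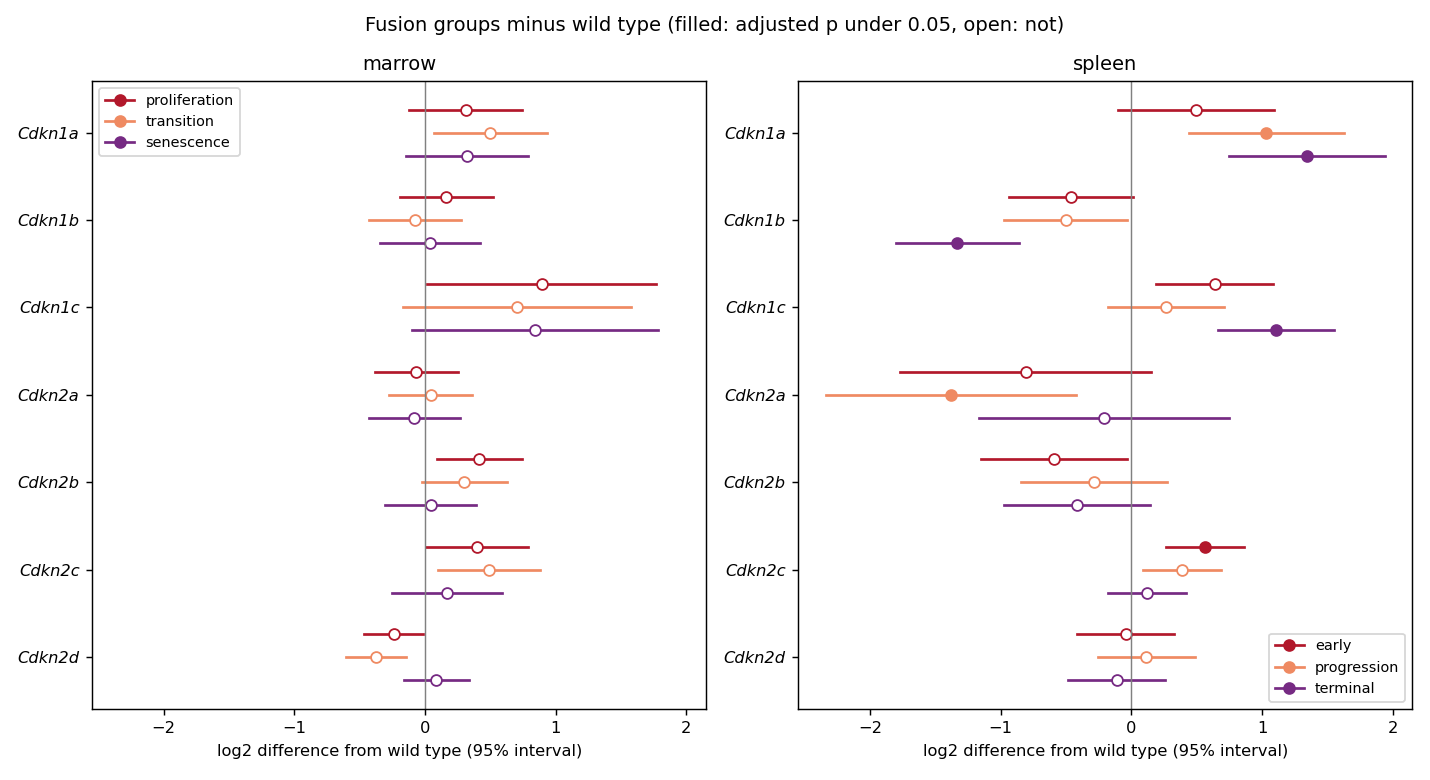
Log2 difference of each fusion group from wild type of the same tissue (points) with 95% intervals (lines), for the 7 inhibitors in marrow (left) and spleen (right). Filled points passed the adjusted p threshold of 0.05 by limma and open points did not. No marrow point is filled, and in terminal spleen Cdkn1a (1.34), Cdkn1b (-1.33) and Cdkn1c (1.11) are.

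The effect of the fusion, averaged over 3 groups, was also compared between the tissues. Cdkn1b was the 1 member of 7 that differed, its effect in marrow lying 0.81 ± 0.22 above that in spleen (adjusted p = 0.015), where 14% of all genes passed. The marrow effect was 0.04 and the spleen effect -0.76. With the mean of both Cdkn1b sets the contrast was 0.01 ± 0.21 (adjusted p = 0.98), and without the 3 spleens with pancreas signal it was 0.58 ± 0.24 (adjusted p = 0.16). For Cdkn1a the marrow effect was 0.58 ± 0.28 below the spleen effect and did not pass (adjusted p = 0.19).

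Of 25 kinases, cyclins, pocket proteins and related genes through which these inhibitors act, 12 passed in terminal spleen, 8 higher and 4 lower. That is 48.0% of the list, where 34.5% of all genes passed, with a median difference of 0.14 against 0.04 over all genes. Cdc25a, a phosphatase that activates cyclin-dependent kinases, rose by 1.57 ± 0.13, Cdk6, a target of the INK4 proteins, by 1.62 ± 0.28, and Cdk2, a target of p21 and p27, by 0.69 ± 0.12. Rb1, the pocket protein that these kinases inactivate, was lower by 1.01 ± 0.13. In early spleen 9 of 25 passed (6 higher, 3 lower), where 15.9% of all genes did, and in progression 11 (7 higher, 4 lower), where 19.3% did. Ccnd2, a D-type cyclin, was lower in both, by 1.23 ± 0.24 and 1.17 ± 0.24, as was E2f5, a repressive E2F factor, by 1.15 ± 0.19 and 1.19 ± 0.19. Ccnd3, another D-type cyclin, rose by 0.73 ± 0.15 in early spleen, and Cdk1, the mitotic kinase, by 0.63 ± 0.13 in progression. In marrow 0 of 25 passed by limma in each comparison of a state with wild type, with 3 or 4 at an unadjusted p under 0.05.

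Genes of cell division, which the inhibitors oppose, were mostly higher where they passed in the fusion spleens. Of 21 genes 7 rose in early spleen (15.9% of all genes passed there in either direction), 10 in progression (19.3%) and 8 in terminal (34.5%), where 3 fell. Bub1b, a spindle checkpoint kinase, rose by 0.86 ± 0.16, 0.94 ± 0.16 and 1.01 ± 0.16 over these stages. Terminal against progression, where 5.86% of all genes passed, 4 of 21 fell and none rose, among them Mki67, the proliferation marker Ki-67, by 0.72 ± 0.15 (adjusted p = 0.015), and Tyms, thymidylate synthase, by 0.97 ± 0.22 (adjusted p = 0.024). In marrow 0 of 21 passed by limma, also at an unadjusted p under 0.05, and their median difference was -0.31 in proliferation, -0.24 in transition and -0.33 in senescence.

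Of 33 regulators of the inhibitors, 20 passed in terminal spleen, 10 higher and 10 lower, which is 60.6% of the list where 34.5% of all genes passed. Foxo1 and Foxo3 code for factors that activate Cdkn1b, and Akt1 for the kinase that inactivates them. Foxo1 fell by 2.52 ± 0.30 in terminal spleen, and Akt1 was higher by 1.11 ± 0.10. These are RNA levels, and their part in the Cdkn1b fall, which rests on 1 of its 2 probe sets, was not tested. Tgfbr2, a receptor of TGF-beta, was lower by 1.73 ± 0.19, and Cebpa, a myeloid factor whose product stabilises p21, was higher by 1.72 ± 0.16. Terminal against progression, Foxo3 was lower by 1.19 ± 0.23 (adjusted p = 0.01), Akt1 higher by 0.68 ± 0.12 and Mdm2, the ligase that removes p53, higher by 0.61 ± 0.10. Bmi1 and Cbx7, Polycomb repressors of Cdkn2a, were lower in early spleen, by 0.80 ± 0.12 and 0.98 ± 0.16. In marrow Foxo1 was the regulator called, lower in transition by 0.80 ± 0.16 (adjusted p = 0.043). Of 11 B cell markers 3 fell in transition marrow as well, and 10 in terminal spleen, where 0.234% and 16.3% of all genes were called lower. The part of such shifts in the differences of these lists was not tested.

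Of 23 p53 target genes other than the inhibitors, 3 rose and 8 fell in terminal spleen, while Cdkn1a rose. The 11 called are 47.8% of the list, where 34.5% of all genes passed. Apaf1, of the apoptosome, rose by 1.37 ± 0.12 and Xpc, a DNA damage sensor, by 2.09 ± 0.26, and Sesn1, a stress sensor, fell by 1.89 ± 0.18. Of 19 genes of the senescence list 2 rose and 4 fell in terminal spleen, 31.6% of the list and near the 34.5% of all genes. Igfbp7, a secreted protein of stroma and endothelium, fell by 4.68 ± 0.63, beside stroma markers that were lower there. In transition marrow Ccl3 and Cxcl2, chemokines of the secretory programme, rose by 3.22 ± 0.44 and 3.21 ± 0.60. They were 2 of 19 there, where 0.42% of all genes passed. In senescence 0 of 19 passed by limma, also at an unadjusted p under 0.05, and 0.0484% of all genes passed by limma. Between senescence and transition 0% of all genes passed.

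For each member the 2 genes with the most similar levels over the arrays of a tissue were listed, among 6843 genes in marrow and 6815 in spleen, as a description only, since arrays of a tissue share stage and cell composition. In spleen (14 arrays) Cdkn1a ran with Ifitm3 (r = 0.963) and Apoc2 (0.944), Cdkn1b with Fundc2 (0.967) and Vbp1 (0.962), and Cdkn1c with Pcsk7 (0.918) and Lpgat1 (0.912). Among the INK4 genes, Cdkn2a ran with Traf2 (0.863) and Lcmt2 (0.859), Cdkn2b with Batf3 (0.857) and Cmtm3 (0.829), Cdkn2c with Wdr90 (0.884) and Sgo1 (0.823), and Cdkn2d with Pcbd2 (0.706) and Fam133b (0.695). In marrow (15 arrays) the closest were Plk3 (0.853) and Nr4a1 (0.840) for Cdkn1a, Zmat3 (0.710) and F5 (0.703) for Cdkn1b, and Ptk2b (0.949) and Vps39 (0.935) for Cdkn1c. Cdkn2a ran with Cd320 (0.790) and Rbm6 (0.765), Cdkn2b with Siglecf (0.806) and Trip12 (0.797), Cdkn2c with Trim13 (0.905) and Cops2 (0.899), and Cdkn2d with Tinagl1 (0.852) and Zfp212 (0.786). No gene was among the closest pair of a member in both tissues.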

How the data were processed

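RNA of 29 mouse samples, 15 of marrow and 14 of spleen, was hybridised to a 1-colour oligonucleotide array. The authors deposited 1 log2 value per probe set and array, which the submitters' processing notes tie to RMA, affy and limma, whose versions, settings and genome build are not given in the sources used here. Of 22690 probe sets 20393 named 1 gene symbol, 691 several and 1606 none. A gene was the brightest set of its symbol in a tissue, without a filter on dim sets or detection calls. Groups came from the labels. Each tissue was fitted with 1 model of its 4 groups in limma 3.58.1 (R 4.3.3), and p-values were adjusted over 12394 genes (Benjamini-Hochberg, threshold 0.05). Differences are given ± SE. The contrast between tissues came from 1 fit of all 8 groups. No fold is given for members below the array medians. Arrays have no read depth, and their number limits the precision. The fits were tested on simulated data. Figures were drawn with matplotlib 3.10.9.

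The members, gene lists and tests were chosen with earlier results of these data known. Named were the 7 members in every comparison, up to 4 called genes of each list and comparison, and the 2 genes most like a member. The alternatives were other normalizations, a filter on dim sets, the mean of a gene's sets, other variance models, array weights, a replicate block, a covariate (the Gapdh difference or Xist), and leaving out single arrays. Leaving out the 3 spleens with pancreas signal was added after seeing the data. Promoter windows are from RefSeq (GRCm38.p6), in which 6 of 7 members had a window.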

Additional observations from a re-analysis of the deposited data

Results flagged for a closer look

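In wild-type spleen, replicate 1 stood apart from the other 4 arrays for 2 of the inhibitors. Its Cdkn1a level was 7.88, with the nearest wild-type array at 7.23, a gap of 0.786 of the group's range. Its Cdkn1b level was 10.45, with the nearest at 11.33, a gap of 0.81 of the range. A gap above 0.71 of the range marks an array as apart in a group of 5. This array was the wild-type spleen with 24 months of tamoxifen, the others having 8 to 11. Without it the terminal differences were 1.49 for Cdkn1a and -1.53 for Cdkn1b. In transition marrow, replicate 3 stood at 11.52 for Cdkn2d, with the nearest at 11.34, a gap of 0.9 of the range, where 0.829 marks an array as apart in a group of 4. Chance marks about 1 in 20 groups, and 28 groups of 4 or 5 arrays were looked at. The fusion effect on Cdkn1b differed between the tissues, marrow minus spleen 0.8072 (adjusted p = 0.015 by limma), as reported above.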

How the results depend on the processing

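Of 2055 differences of members recomputed under the alternatives, 1867 kept direction and side of the threshold, 40 lost the call and 41 gained one. A further 97 values, uncalled in both fits, changed sign, and 10 uncalled values kept their sign but shifted by more than their spread. 0 called values changed sign. Terminal against wild type kept its 3 calls under every alternative that held all 7 genes, except with the mean of all sets of a gene, where Cdkn1b was lost, giving 2. The filter on genes above the median level also gave 2, because it leaves out Cdkn1c. In early against wild type, with 1 called, the count was 2 with centred arrays, with the mean of all sets, with the groups compared alone, with the Gapdh difference and with Xist, 4 with array weights and 0 without the spleens with pancreas signal. In progression against wild type, with 2 called, it was 1 with trend and robust options and with the Gapdh difference, 3 with centred arrays or array weights and 0 without those spleens. There Xist lost Cdkn2a and gained Cdkn1b, and the filter left out Cdkn2a and gained Cdkn2c, with 2 called in both. In terminal against progression, with 1 called, it was 0 with centred arrays, trend and robust options, array weights, Xist or those spleens left out. There, quantile normalization and the groups compared alone lost Cdkn1c and gained Cdkn1b, and the filter left out Cdkn1c and gained Cdkn1b. In the spleen mean, Cdkn1b was lost with the mean of all sets. In terminal against early, with 0 called, it was 1 with quantile normalization, the filter, the groups compared alone and trend and robust options, and 3 with array weights. The spleen mean fell to 1 without the spleens with pancreas signal. The contrast between tissues, with 1 called, gave 0 with the mean of all sets, 0 without those spleens and 2 with array weights. In marrow array weights gave 1 in proliferation, 1 in transition and 2 in the mean. Leaving out 1 array at a time gave 0 to 2 in early, 0 to 2 in progression, 3 to 4 in terminal, 0 to 1 in terminal against progression, 0 to 1 in terminal against early, 3 to 5 in the spleen mean, 1 to 3 between tissues and 0 in every marrow comparison. Where no value above names the cause, the cause was not tested.

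The replicate numbers do not pair samples: deviations of arrays with the same number correlated at -0.43 to 0.551 (marrow) and -0.321 to 0.23 (spleen), and 2 of 15 and 4 of 14 arrays correlated best with their own number. With the replicate block the members called were 0 in early, 0 in progression, 0 in terminal against progression and 1 between tissues, where Cdkn2b replaced Cdkn1b, while terminal against wild type kept 3 and the spleen mean lost Cdkn2c.

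Over all genes, the filter gave as few as 8 calls in proliferation, 14 in transition and 1 in senescence, and array weights as many as 1221, 1979 and 69, against 35, 52 and 6. Array weights also gave 5699 in early, 3765 in progression and 3471 in terminal against early, against 1971, 2386 and 819. Leaving out 1 array gave 21 to 664 in transition and 0 to 382 in progression against early. Dim members (Cdkn2a and Cdkn2b in both tissues, Cdkn1c in spleen) limit what can be seen.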
